A study of Homo sapiens with 10 samples.

Results

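Tubulin isotypes are the separate genes that encode the alpha and beta subunits of the microtubule. The 10 of them named next were followed here by gene symbol: the beta-tubulin genes TUBB, TUBB2A, TUBB2B, TUBB3, TUBB4A, TUBB4B and TUBB6 and the alpha-tubulin genes TUBA1A, TUBA1B and TUBA4A. These are 10 of the 26485 genes listed in the count tables, and all 10 passed the filter on low counts, as did 14932 genes in all. Polyadenylated RNA had been sequenced from SW480, an established line from a human colorectal adenocarcinoma whose genotype the labels give as WT in every sample. The cells had been sorted by flow cytometry on ROBO1, a receptor for SLIT guidance proteins. Of the 10 libraries, 5 came from ROBO1-positive cells, labelled SW480-CBC and named ROBO1pos here, and 5 from ROBO1-negative cells, labelled SW480-RSC and named ROBO1neg. The labels do not say whether replicates were separate cultures, so the spread behind each p-value is that between libraries and may be technical.

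As background, an alpha and a beta subunit join into a heterodimer, and heterodimers add end to end into protofilaments that form the wall of the microtubule. The isotypes of a family are nearly identical in their folded core and differ most in the acidic tail at the carboxyl end, which projects from the microtubule and carries most of its enzymatic modifications. TUBB3 and TUBB2B are best known from neurons, TUBB4A from brain, and TUBA1B and TUBB4B are expressed widely. TUBB3 in carcinoma cells is widely studied in connection with drugs that bind microtubules. Tubulin subunits cannot fold alone and pass through prefoldin, the chaperonin CCT and the tubulin cofactors, and tubulin mRNA is degraded when free heterodimer is abundant.

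The coding ends of the 7 beta genes are printed first, since they hold the sequence by which these isotypes differ most. They are read from GENCODE 29 transcripts on GRCh38. The 30 lower-case bases end the stretch that lines up without gaps within the family, up to codon 430, and the capitals are the isotype's own tail with its stop codon.
TUBB2A, chr6:3153863-3153940 (- strand): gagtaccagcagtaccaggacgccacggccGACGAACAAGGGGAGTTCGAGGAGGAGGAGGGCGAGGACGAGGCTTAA
TUBB2B, chr6:3224751-3224828 (- strand): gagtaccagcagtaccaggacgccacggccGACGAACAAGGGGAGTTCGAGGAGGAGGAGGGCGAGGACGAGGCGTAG
TUBB3, chr16:89935712-89935804 (+ strand): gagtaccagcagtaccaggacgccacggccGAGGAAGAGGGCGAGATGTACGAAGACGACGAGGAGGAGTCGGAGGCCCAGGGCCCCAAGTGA
TUBB4B, chr9:137243479-137243556 (+ strand): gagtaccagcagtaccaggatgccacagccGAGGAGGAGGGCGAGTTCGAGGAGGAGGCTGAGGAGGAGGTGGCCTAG
TUBB6, chr18:12326050-12326130 (+ strand): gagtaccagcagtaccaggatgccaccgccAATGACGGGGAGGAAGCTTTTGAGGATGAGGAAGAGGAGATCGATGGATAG
TUBB, chr6:30724323-30724397 (+ strand): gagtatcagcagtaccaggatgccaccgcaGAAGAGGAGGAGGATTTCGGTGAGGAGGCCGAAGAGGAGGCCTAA
TUBB4A, chr19:6495164-6495238 (- strand): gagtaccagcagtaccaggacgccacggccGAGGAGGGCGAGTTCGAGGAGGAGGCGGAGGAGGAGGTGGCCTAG

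Beyond that shared stretch TUBB3 has 20 codons before its stop, the longest tail of the 7, TUBB6 has 16, and the other beta genes have 14 or 15. Within the 1290 aligned coding bases before the tail, TUBB2A and TUBB2B were identical at 98.22% and differed in the encoded residue at 2 of 430 codons. Their printed ends differ at 2 of 78 bases and at 0 residues. By codons that change the residue TUBB6 stands farthest from the rest, with 24 to 32 against each other beta gene. By base identity TUBB does, at 81.86% to 85.35%. Likeness between isotypes bears on the counts. Of the 100-base windows of the TUBB2A transcript, 56.4% also occur in a gene at another locus (54.4% in TUBB2B), and of those of TUBB2B 46.2%. The figure was 37.2% for TUBA1B, 15.7% for TUBA1A, at most 5.15% for TUBB, TUBB3 and TUBB4B, and 0% for TUBB4A, TUBB6 and TUBA4A. Windows of 50 bases gave 65.5% for TUBB2A, 52.2% for TUBB2B, 62.7% for TUBA1B and 33.9% for TUBA1A. They gave 18.2% for TUBB, 9.89% for TUBB4B, 8.9% for TUBB3, 5.99% for TUBB4A, 0.993% for TUBB6 and 0% for TUBA4A. Reads aligned to several places are tallied apart (20.5% to 26.2% of all reads listed, with a mean of 24.6% in ROBO1pos and 21.2% in ROBO1neg). The levels of TUBB2A, TUBB2B, TUBA1A and TUBA1B are therefore the most uncertain, and those of isotypes with smaller shared parts less so. The part of these reads in the differences was not tested. The strand setting of the counting was not given in the sources used here. TUBA4A overlaps STK16 and TUBA4B, TUBA1A overlaps TUBA1C, and TUBB4B overlaps FAM166A, each listed as a gene of its own, so reads of those pairs may not be fully separated.

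ROBO1 itself, the receptor used for the sort, had a mean of 429.5 CPM in the ROBO1pos libraries and 7.25 CPM in the ROBO1neg libraries. The log2 difference was 5.88 ± 0.111 (SE). CPM here are reads scaled to the library's total on tested genes, with TMM factors. Reads on all genes ran from 23228686 to 29539100 per library. On that total, before TMM factors, 1 CPM stood for 23.2 to 29.5 counts. The epithelial origin was checked on 12 markers, whose summed level was 5900 to 7190 CPM in ROBO1pos and 8230 to 10700 CPM in ROBO1neg, with KRT20 at 0 in every library. The test called 4 of 11 toward ROBO1pos and 6 toward ROBO1neg. The share called, 90.9%, stood beside 82% over all genes tested (41.6% higher in ROBO1pos and 40.4% in ROBO1neg). The keratins KRT8, KRT18 and KRT19 made up most of the sum. EPCAM (679.9 and 302.5 CPM), VIL1 (503 and 27.7 CPM), CDH17 (6.94 and 0.127 CPM) and CDX1 (0.744 and 0.0306 CPM) were the 4 higher in ROBO1pos. Higher in ROBO1neg were KRT8 (2165 and 3755 CPM), KRT18 (2343 and 4095 CPM) and KRT19 (493 and 872 CPM). So were CLDN4 (125 and 222 CPM), CDH1 (34.2 and 44.4 CPM) and CLDN3 (10.2 and 17.25 CPM). CDX2 did not pass the test. Markers of other cells were low: the summed level never exceeded 22.6 CPM for 8 fibroblast genes, 7.16 CPM for 8 immune genes or 4.36 CPM for 6 endothelial genes.

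Of the 10 isotypes, 9 differed between the populations, and they did not move one way. TUBB3, TUBA1A and TUBA4A were higher in ROBO1pos, whereas TUBB2A, TUBB2B, TUBB4A, TUBB4B, TUBB6 and TUBA1B were higher in ROBO1neg (edgeR quasi-likelihood test, Benjamini-Hochberg adjusted p under 0.05 over all genes tested). The largest differences were those of TUBB2A (11.1-fold higher in ROBO1neg), TUBB6 (5.85-fold higher in ROBO1neg) and TUBB3 (3.35-fold higher in ROBO1pos). TUBB did not pass. These counts of 3 and 6 stand against a large background: the 2 populations differed at 82% of all genes tested, 41.6% higher in ROBO1pos and 40.4% higher in ROBO1neg. A difference past the test and of at least 2-fold was found for 30.3% of all genes. It was seen for 1 isotype toward ROBO1pos and 3 toward ROBO1neg, against 13.5% and 16.8% of all genes. The median log2 difference (ROBO1pos minus ROBO1neg) was -0.52 over the 10 isotypes and 0.02 over all genes, whose middle 50% ran from -0.61 to 0.55. By absolute log2 difference TUBB2A was 1057th, TUBB6 1614th and TUBB3 2508th of the 14932 genes. Libraries of the 2 populations did not overlap for 9 of the 10 isotypes, which was true of 71.9% of all genes. In bulk samples such as these, a smaller share of cells expressing a gene and less RNA per cell cannot be told apart.

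**Figure D1:**
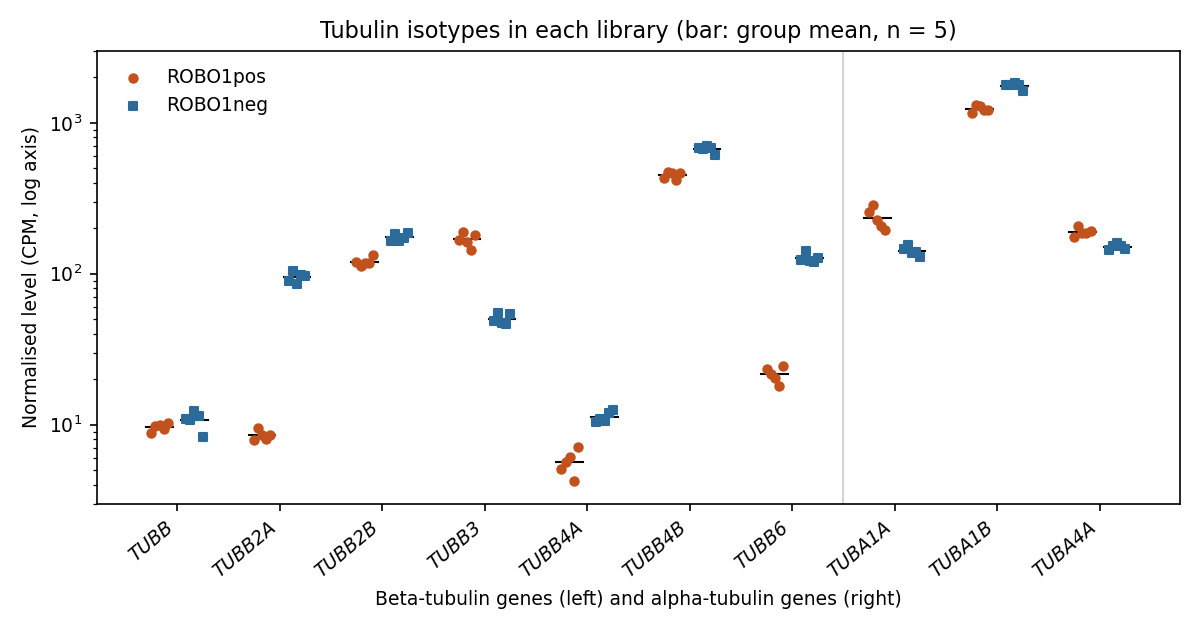
Level of each tubulin isotype in each library, in CPM on a log axis, with ROBO1pos libraries as circles, ROBO1neg libraries as squares and group means as bars (n = 5). Points of the 2 populations are separate for every gene but TUBB, and are farthest apart for TUBB2A, TUBB6 and TUBB3.

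TUBB3, the class III beta-tubulin of neurons, was the only beta gene of the 7 higher in ROBO1pos. In ROBO1pos replicates 1 to 5 it stood at 167, 189.8, 161, 144 and 181 CPM, and in ROBO1neg at 48.9, 55.0, 47.2, 46.5 and 54.3 CPM. The lowest ROBO1pos library was thus well above the highest ROBO1neg library. The means were 169 ± 17.9 CPM and 50.4 ± 4.03 CPM (SD, n = 5), a log2 difference of 1.74 ± 0.0755 (SE, edgeR adjusted p = 5e-11). The tested genes nearest to TUBB3 on chromosome 16 had a median log2 difference of 0.32. Up to 20 were taken on each side of chr16:89921925-89936097, fewer where the chromosome ends.

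Since TUBB3 and MAP2 are used as marks of neurons, 12 neuronal genes were read beside it. Their summed level was 214 to 243 CPM in ROBO1pos and 56.7 to 91.6 CPM in ROBO1neg. Of the 5 that could be tested, 4 were higher in ROBO1pos and 1 in ROBO1neg (41.6% and 40.4% over all genes), with a median log2 difference of 1.40. In ROBO1pos the sum was carried by MAP2, by the synaptotagmin gene SYT1 and by the synaptic vesicle gene SYP. SYT1 had means of 135 CPM in ROBO1pos and 51.0 CPM in ROBO1neg, and SYP 30.1 and 12.3 CPM. GAP43 was also higher in ROBO1pos (2.39 and 0.637 CPM). SNAP25 was the 1 that was higher in ROBO1neg (4.43 and 7.13 CPM). The 7 that could not be tested were DCX, STMN2, NEFL, NEFM, ELAVL3, ELAVL4 and RBFOX3. ELAVL4 had a mean of 0.358 CPM in ROBO1pos (46 reads over 5 libraries, against 7 in ROBO1neg), and the other 6 had at most 0.132 CPM there. The part of this marker list in the difference of TUBB3 was not tested.

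TUBB2A and TUBB2B, the class II beta-tubulins, differed in the same direction but by unlike amounts. TUBB2A stood at 7.93, 9.49, 8.56, 8.08 and 8.59 CPM in ROBO1pos and at 89.3, 104, 85.6, 97.3 and 97.0 CPM in ROBO1neg. Every ROBO1neg library was above 85 CPM and every ROBO1pos library below 10 CPM. In raw reads this was 1091 over the 5 ROBO1pos libraries and 12030 over the 5 ROBO1neg libraries. The means were 8.53 ± 0.608 and 94.6 ± 7.26 CPM (SD, n = 5), and the log2 difference was -3.47 ± 0.0669 (SE, edgeR adjusted p = 3.2e-14). TUBB2B stood at 119, 112, 118, 118 and 132 CPM in ROBO1pos and at 164, 184, 165, 172 and 185 CPM in ROBO1neg. Its groups did not overlap either, but the means of 119.9 ± 7.45 and 174 ± 10.1 CPM (SD, n = 5) were only 1.45-fold apart (log2 difference -0.54 ± 0.0521 SE, edgeR adjusted p = 2.7e-07). The loci lie 66.7 kb apart on chromosome 6, TUBB2A at chr6:3153666-3157544 and TUBB2B at chr6:3224277-3227653. The 28 other tested genes within 2500 kb of their midpoint had a median log2 difference of -0.61, and 6 of them were at -1 or below. They ran from -6.67 (KU-MEL-3) to 0.46 (FARS2), with PXDC1 at -3.47. Less the median of the nearest genes (up to 40, median -0.31), TUBB2A kept a log2 difference of -3.16 and TUBB2B one of -0.23.

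**Figure D2:**
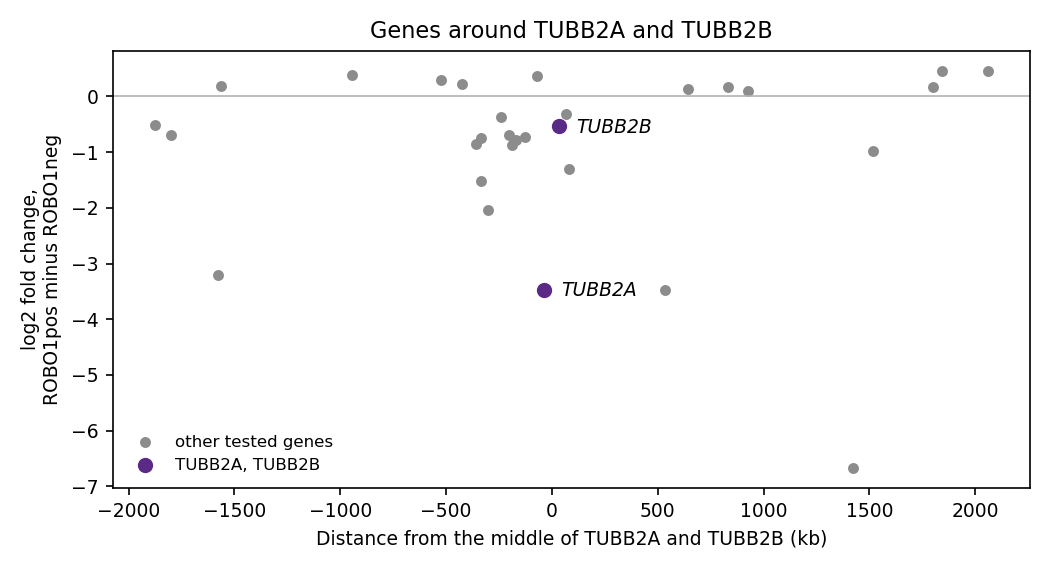
Log2 difference (ROBO1pos minus ROBO1neg) of each tested gene against its distance in kb from the middle of TUBB2A and TUBB2B, with the tubulin genes as large points and the 28 other genes as small ones. TUBB2A lies at -3.47 and TUBB2B at -0.54, and the other genes have a median of -0.61 and run from -6.67 to 0.46.

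The sequences just upstream of this pair are shown for reference. Their part in the unlike differences of the 2 genes was not tested. Both come from RefSeq (GRCh38.p14), 5′ to 3′ toward the gene. For TUBB2A all 250 bases before the start are printed, and for TUBB2B the 168 bases from 250 to 83 before the start that lie outside annotated untranslated exons. Capitals mark matches, on either strand, to 4 short motifs: the CCAAT box (CCAAT), the core of the TATA box (TATAA), the cyclic-AMP response element (TGACGTCA) and the GC box (GGGCGG).
TUBB2A, chr6:3157545-3157794 (- strand): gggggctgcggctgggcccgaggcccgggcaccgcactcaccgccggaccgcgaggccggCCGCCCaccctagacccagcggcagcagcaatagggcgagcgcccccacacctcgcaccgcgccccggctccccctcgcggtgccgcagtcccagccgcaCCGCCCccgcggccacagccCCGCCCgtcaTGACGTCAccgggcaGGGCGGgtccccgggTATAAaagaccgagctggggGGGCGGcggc
TUBB2B, chr6:3227736-3227903 (- strand): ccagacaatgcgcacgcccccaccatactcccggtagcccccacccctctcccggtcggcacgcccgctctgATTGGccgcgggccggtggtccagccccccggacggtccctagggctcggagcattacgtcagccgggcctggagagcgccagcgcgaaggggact

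The TUBB2A window held TATAA 30 bases and TGACGTCA 60 bases before the start, with 5 GGGCGG matches. In the 250 bases of TUBB2B the search found CCAAT at 178 bases and, beyond the printed stretch, GGGCGG at 48 bases, and neither TATAA nor TGACGTCA. Over 35116 RefSeq promoters of the same length, CCAAT occurred in 32%, TATAA in 18.9%, TGACGTCA in 1.65% and GGGCGG in 42.6%. Of the 10 isotypes, 7 held CCAAT, 4 TATAA, 1 TGACGTCA and 7 GGGCGG, at the RefSeq start nearest to each GENCODE transcript. These counts depend on that choice. TUBB4A has RefSeq starts 264 and 275 bases from its GENCODE start. The nearer, used here, held CCAAT but no GGGCGG, and the other GGGCGG but no CCAAT. These are exact matches of letters, not measured binding. Near matches were not counted, such as cataaaa in the unprinted part of the TUBB2B window and ttacgtca in its printed part.

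TUBB6, the class V beta-tubulin, was higher in ROBO1neg. It stood at 23.5, 21.8, 20.5, 17.9 and 24.5 CPM in ROBO1pos and at 123, 140.4, 122, 119 and 127 CPM in ROBO1neg. No ROBO1pos library came near the lowest ROBO1neg library. The means were 21.6 ± 2.56 and 126.5 ± 8.31 CPM (SD, n = 5), with a log2 difference of -2.55 ± 0.0756 (SE, edgeR adjusted p = 1.3e-12). Its 40 neighbours on chromosome 18 (chr18:12307669-12329826) had a median of 0.06.

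TUBB4B, the class IVb beta-tubulin and the most abundant beta gene of these cells per length, was higher in ROBO1neg by 1.49-fold. It stood at 431, 472, 466, 417 and 463 CPM in ROBO1pos and at 679, 674.5, 699, 681 and 612 CPM in ROBO1neg. The groups were separate, and ROBO1neg replicate 5 lay below the other 4 ROBO1neg libraries. Means were 449.8 ± 24.1 and 669 ± 33.2 CPM (SD, n = 5), with a log2 difference of -0.57 ± 0.0478 (SE, edgeR adjusted p = 5.6e-08). Its nearest tested genes on chromosome 9 (up to 20 on each side of chr9:137241287-137243707) had a median of -0.35, which leaves -0.22.

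TUBB4A, the class IVa beta-tubulin of oligodendrocytes and neurons, was scarce in both populations. It stood at 5.07, 5.63, 6.12, 4.24 and 7.07 CPM in ROBO1pos and at 10.5, 10.9, 10.6, 12.01 and 12.4 CPM in ROBO1neg, from 105 to 352 reads per library. The groups did not overlap. Means were 5.63 ± 1.07 and 11.3 ± 0.889 CPM (SD, n = 5), which is 2.01-fold (edgeR adjusted p = 2.5e-06). Its position is chr19:6494319-6502848.

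TUBB, the class I beta-tubulin that most cell types express, also had few reads here. It stood at 8.82, 9.78, 9.96, 9.38 and 10.2 CPM in ROBO1pos and at 10.9, 10.8, 12.3, 11.5 and 8.29 CPM in ROBO1neg. The groups overlapped, because ROBO1neg replicate 5 was the lowest of all 10 libraries. The log2 difference was -0.16 ± 0.0993 (SE, edgeR adjusted p = 0.15), and without that library it was -0.25 with an edgeR adjusted p of 0.011. The low level of TUBB has to be read with its place at chr6:30720352-30725422. Of 66 other protein-coding genes listed within 1000 kb of TUBB, 22.7% passed the filter and their median level was 0.0174 CPM, against 64.8% and 8.01 CPM for the rest of chromosome 6. How reads from this region were aligned and counted was not tested, so TUBB is left out of the order of levels given further on.

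The alpha genes split as well. TUBA1A, the alpha-tubulin most abundant in the developing brain, stood at 258, 284, 228, 206 and 194 CPM in ROBO1pos and at 146, 155, 138, 139 and 129 CPM in ROBO1neg. All ROBO1pos libraries were above all ROBO1neg libraries, with a wide spread among the former. Means were 234 ± 36.9 and 141.5 ± 9.81 CPM (SD, n = 5), a log2 difference of 0.73 ± 0.0916 (SE, edgeR adjusted p = 4.5e-06).

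TUBA1B, the alpha-tubulin with the highest level of the 10 genes as counted, stood at 1160, 1321, 1292, 1208 and 1215 CPM in ROBO1pos. In ROBO1neg it stood at 1770, 1766, 1833, 1781 and 1612 CPM. The groups did not overlap, and the mean was 1.41-fold higher in ROBO1neg (1239 ± 66.0 against 1752 ± 82.9 CPM, SD, n = 5, edgeR adjusted p = 2e-07). TUBA1A (chr12:49184795-49189080) and TUBA1B (chr12:49127782-49131395) lie close together on chromosome 12, where the 40 genes nearest to each had medians of -0.54 and -0.52. Less these medians, TUBA1A was at 1.27 and TUBA1B at 0.02. The latter is smaller than the SE of the log2 difference of TUBA1B (0.0469), but that SE does not include the spread of the neighbours.

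TUBA4A, the third alpha-tubulin gene followed, stood at 174, 206, 186.5, 186 and 191 CPM in ROBO1pos. In ROBO1neg it stood at 143, 152, 159, 152 and 145 CPM. The groups were separate but close, with means of 189 ± 11.5 and 150.2 ± 6.24 CPM (SD, n = 5), a 1.26-fold difference (edgeR adjusted p = 1.8e-05). Its neighbours on chromosome 2 (chr2:219249710-219254740) had a median of -0.70, against its own log2 difference of 0.33.

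**Figure D3:**
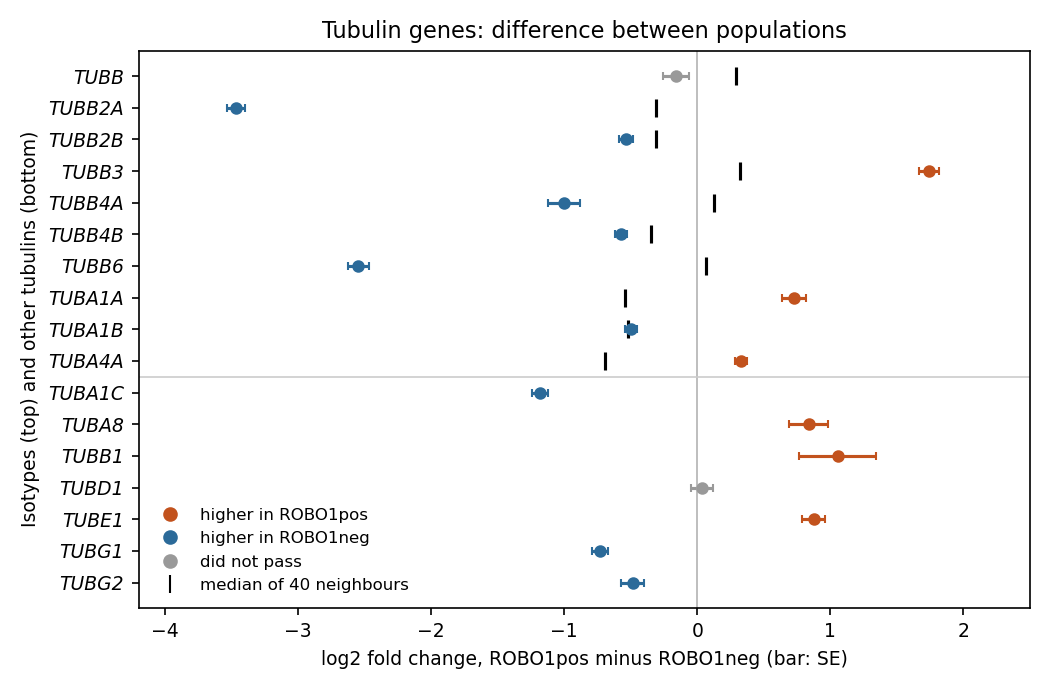
Log2 difference (ROBO1pos minus ROBO1neg) with its SE for the 10 isotypes (above the line) and 7 other tubulin genes (below it), coloured by direction, with TUBB and TUBD1, which did not pass, in grey. Black ticks give the median of the genes nearest to each isotype, up to 40. TUBB2A, TUBB3 and TUBB6 lie far from theirs, and TUBA1B lies on its tick.

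To order the genes other than TUBB by level, CPM was divided by transcript length in kilobases. In ROBO1pos TUBA1B led with 762 ± 40.4 CPM per kb (SD, n = 5), followed by TUBB4B with 275 ± 14.8. TUBA1A (122 ± 19.3), TUBB3 (95.3 ± 10.1) and TUBA4A (87.3 ± 5.31) came next, and each overlapped its neighbour in this order. TUBB2B followed with 59.3 ± 3.68, and TUBB6, TUBB2A and TUBB4A had 10.5 or less. In ROBO1neg TUBA1B (1077 ± 51.0) and TUBB4B (409 ± 20.3) again led, and TUBB2B was the third with 86.2 ± 5.01. TUBA1A (73.9 ± 5.12) overlapped TUBA4A (69.5 ± 2.88), and TUBB6 (61.3 ± 4.04) overlapped both of these and TUBB2A (59.3 ± 4.56). TUBB3 came after them with 28.5 ± 2.28, and TUBB4A had 4.42. In sum, the 7 beta genes, with TUBB as counted, reached 451 ± 25.6 CPM per kb in ROBO1pos and 652.5 ± 17.7 in ROBO1neg. The 3 alpha isotypes with TUBA1C reached 1043 ± 56.2 and 1383 ± 57.4.

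As shares of the beta-tubulin signal per length, again with TUBB as counted, the mix differed mainly in 3 genes. TUBB3 made up 21.1% ± 1.25 of it in ROBO1pos and 4.37% ± 0.377 in ROBO1neg (SD, n = 5). TUBB2A made up 1.19% and 9.10%, and TUBB6 2.32% and 9.39%. TUBB4B held most of the signal in both, at 60.9% ± 1.18 and 62.6% ± 2.24, and TUBB2B 13.2% in each. Per transcript length TUBB3 was the second beta gene in every ROBO1pos library, and in every ROBO1neg library it came after TUBB2B, TUBB6 and TUBB2A. Of the alpha-tubulin signal TUBA1B made up 73.1% in ROBO1pos and 77.9% in ROBO1neg, TUBA1A 11.7% and 5.35%, TUBA4A 8.38% and 5.03%, and TUBA1C 6.87% and 11.7%. Any TUBB signal missing from the counts would lower all the other beta shares. The shares also depend on how much of each transcript could receive uniquely aligned reads. Divided instead by the number of 100-base windows found at no other locus, TUBB2A had 2.36% and 16.7% and TUBB2B 21.0% and 19.5%. On that scale TUBB4B had 54.4% and 51.7%, higher in ROBO1pos rather than lower, and TUBB3 had 19.2% and 3.67%, so that TUBB2B stood above it in ROBO1pos.

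**Figure D4:**
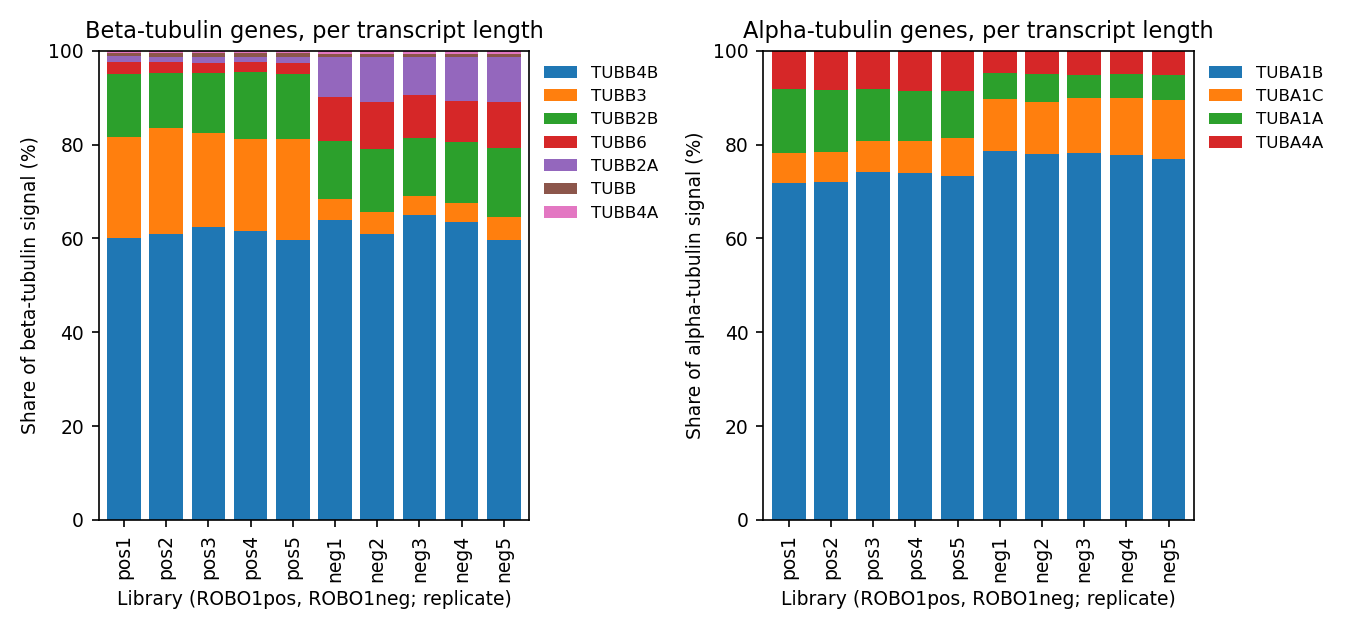
Share (%) of the summed per-length signal held by each beta-tubulin gene (left) and alpha-tubulin gene (right) in each of the 10 libraries, as stacked bars that add to 100%. TUBB3 takes 21.1% of the beta signal on average in ROBO1pos and 4.37% in ROBO1neg, where TUBB6 and TUBB2A take 9.39% and 9.10%.

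Some genes followed the same pattern over the libraries as the 2 isotypes at the ends of the range. By Pearson correlation of log2 CPM over the 10 libraries, those most like TUBB3 were TXN2 (r = 0.998), RASA1 (0.997) and IARS2 (0.997). Those most like TUBB2A were S100A2, PSMD13 and SEC61A1, each at r = 0.999. Among 11899 genes considered, 122 exceeded 0.99 with TUBB3 and 882 with TUBB2A. These values include the step between the 2 populations, which any gene that differs strongly between them shares. S100A2, a calcium-binding protein gene, had 4.63 CPM in ROBO1pos and 181 CPM in ROBO1neg.

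Of the 12 other tubulin genes, 7 were tested: 3 were higher in ROBO1pos and 3 in ROBO1neg, while 1 did not pass. The share called, 85.7%, was near the 82% over all genes. Their median log2 difference was 0.03. TUBA1C, another widely expressed alpha-tubulin, had the highest level of them, at 215 ± 19.0 CPM in ROBO1pos and 486.5 ± 23.6 CPM in ROBO1neg (SD, n = 5, edgeR adjusted p = 2.2e-10). TUBG1, the gamma-tubulin that nucleates microtubules, had 49.5 ± 3.89 and 82.1 ± 5.12 CPM (edgeR adjusted p = 3.8e-08), and its paralog TUBG2 13.5 and 18.9 CPM. TUBE1, the epsilon-tubulin of centrioles, was higher in ROBO1pos, at 22.6 ± 0.565 against 12.3 ± 1.70 CPM (edgeR adjusted p = 2.6e-07). TUBA8 and TUBB1, the beta-tubulin of platelets, were also higher in ROBO1pos but had means of at most 2.42 CPM. TUBD1, the delta-tubulin, had 14.9 and 14.6 CPM and did not pass (edgeR adjusted p = 0.72).

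Most of the genes that fold tubulin were higher in ROBO1pos. Of 20 folding genes tested out of 21, 14 were higher in ROBO1pos and 4 in ROBO1neg, while 2 did not pass (41.6% and 40.4% over all genes). Their median log2 difference was 0.66. All 8 subunits of the chaperonin CCT, which folds actin and many other proteins as well, were higher in ROBO1pos, by 0.64 to 0.93 on the log2 scale. CCT3 had 697 ± 33.0 CPM in ROBO1pos and 365 ± 13.2 CPM in ROBO1neg (SD, n = 5, edgeR adjusted p = 9e-11). CCT8 had 533 and 292 CPM, and CCT5 962 and 513 CPM. TBCD, a cofactor that holds beta-tubulin, went the other way with 52.3 ± 3.49 and 70.7 ± 2.27 CPM (edgeR adjusted p = 1.2e-06), as did TBCEL (38.6 and 50.5 CPM). PFDN1, a prefoldin subunit, was 1.09-fold higher in ROBO1neg (edgeR adjusted p = 0.019). That call was lost with upper-quartile scaling (edgeR adjusted p = 0.22) and without ROBO1pos replicate 3 (edgeR adjusted p = 0.052).

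Genes that modify tubulin or control its mRNA moved both ways: 9 of 20 tested were higher in ROBO1pos, while 8 were higher in ROBO1neg and 3 missed the threshold. This is 85% called, near the 82% over all genes. The list's median was 0.07. TTC5, which recognises nascent tubulin and triggers decay of its mRNA, had 23.1 ± 0.446 CPM in ROBO1pos and 13.8 ± 0.526 CPM in ROBO1neg (SD, n = 5, edgeR adjusted p = 8.7e-09). VASH2 and VASH1 remove the final tyrosine of alpha-tubulin, and they differed in opposite directions. VASH2 had 19.2 ± 1.69 and 6.28 ± 1.10 CPM (edgeR adjusted p = 8e-09), and VASH1 40.6 and 57.2 CPM (edgeR adjusted p = 1.1e-06). AGTPBP1, a carboxypeptidase that shortens glutamate side chains on tubulin, had 8.67 ± 0.941 CPM in ROBO1pos and 36.8 ± 2.80 CPM in ROBO1neg (SD, n = 5), or 4.24-fold. Its relative AGBL2 had 1.16 and 6.35 CPM. TTLL12, a member of the tubulin ligase-like family, was higher in ROBO1pos (139 and 81.0 CPM).

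Of the nucleation genes, the gamma-tubulin ring complex had 4 of 9 members higher in ROBO1pos, 2 higher in ROBO1neg and 3 that missed the threshold. Called members were 66.7% of this list and 82% of all genes. The list's median log2 difference was 0.04, and none reached 2-fold. TUBGCP4 had 62.4 and 42.2 CPM, TUBGCP5 4.15 and 3.18 CPM, and TUBGCP2 82.5 and 76.2 CPM. TUBGCP3 was higher in ROBO1neg (38.0 and 55.1 CPM), as was NEDD1, which brings the complex to the spindle (49.6 and 57.4 CPM).

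Proteins that bind and stabilise the lattice held the widest differences. Of 21 tested out of 24, 9 were higher in ROBO1pos and 12 in ROBO1neg, where 82% of all genes were called. The list's median log2 difference was -0.15. MAP2, a dendritic microtubule-associated protein, had 57.1 ± 6.76 CPM in ROBO1pos against 0.789 ± 0.312 CPM in ROBO1neg (SD, n = 5). This is a log2 difference of 6.18 ± 0.165 (SE, edgeR adjusted p = 4.9e-13). DCLK1, a kinase with doublecortin domains, had 4.45 ± 0.727 and 282 ± 64.3 CPM, a log2 difference of -5.99 ± 0.176 (SE, edgeR adjusted p = 1.2e-12). Both sets of libraries were fully apart for each of these genes. CAMSAP3, which caps minus ends in epithelial cells, had 93.2 and 29.7 CPM, and TPPP, which bundles microtubules, 22.95 and 7.62 CPM. MTUS1 (8.94 and 33.6 CPM) and MAP4 (197 and 326 CPM), the main microtubule-associated protein of non-neuronal cells, were higher in ROBO1neg.

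At the plus end, 9 of 17 genes were higher in ROBO1pos, while 6 were higher in ROBO1neg and 2 missed it. The share called was 88.2%, beside 82% of all genes. Their median was 0.12. MAPRE2, an end-binding protein, had 56.4 ± 2.14 CPM in ROBO1pos and 10.8 ± 0.535 CPM in ROBO1neg (SD, n = 5, edgeR adjusted p = 9.5e-14). SLAIN1 (18.9 and 9.40 CPM) and the polymerase CKAP5 (460 and 358 CPM) were also higher in ROBO1pos. CLIP1, a linker that tracks growing ends, had 41.7 ± 1.94 and 119 ± 4.97 CPM (edgeR adjusted p = 1.1e-12), and its relative CLIP4 0.416 and 7.41 CPM. TACC1 had 84.3 and 112 CPM.

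Among genes that destabilise or sever microtubules, 8 of 14 tested were higher in ROBO1pos, while 4 were higher in ROBO1neg and 2 missed it. The share called was 85.7%, again near that of all genes (82%). Their median was 0.21. KIF19, a depolymerising kinesin of cilia, had 5.79 to 26.6 CPM in ROBO1pos libraries and 0.174 to 0.478 CPM in ROBO1neg libraries (edgeR adjusted p = 2.9e-08). SPAST, the severing enzyme spastin, had 74.0 and 54.6 CPM, and the katanin-like KATNAL2 3.60 and 1.86 CPM. KATNAL1, another katanin, was higher in ROBO1neg (14.99 ± 1.42 and 44.7 ± 2.31 CPM, SD, n = 5, edgeR adjusted p = 4.6e-11). The tubulin-sequestering stathmin STMN3 (41.8 and 105 CPM) and FIGNL1 (72.8 and 105 CPM) were also higher in ROBO1neg.

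**Figure D5:**
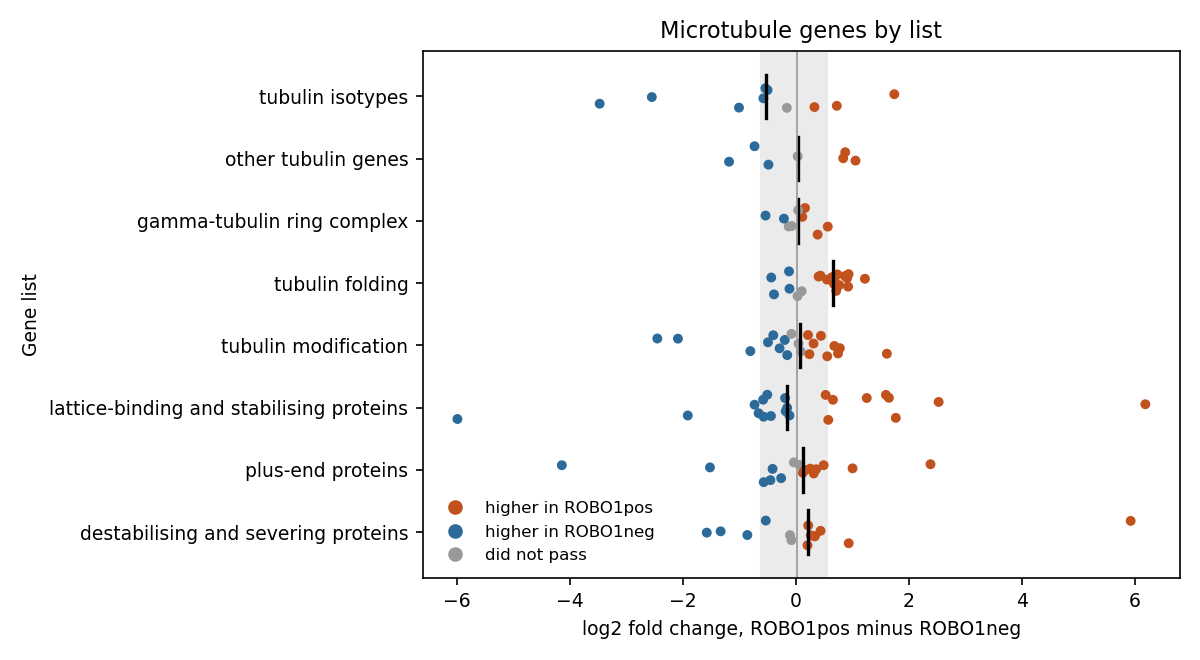
Log2 difference (ROBO1pos minus ROBO1neg) of each tested gene in 8 microtubule gene lists, coloured by direction, with a black bar at each list's median and a grey band for the middle 50% of all genes tested (-0.61 to 0.55). The folding genes centre on 0.66, the tubulin isotypes on -0.52, and the medians of the other lists lie between -0.15 and 0.21.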

How the data were processed

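RNA-seq was analysed from 10 libraries of sorted SW480 cells, 5 per population. Each library has 1 deposited file of raw read counts by gene symbol, not normalised by the authors. The submitters' processing notes name GRCh38, STAR 2.6.0c, SAMtools 1.9, DESeq2 1.24.0, FastQC and bcl2fastq. What did the counting, with which strand setting and annotation, was not given in the sources used here. Entries that name no gene (reads with no feature, 14.1% to 16.7%; aligned to several places, 20.5% to 26.2%; ambiguous, 0.806% to 0.881%) entered neither library sizes nor tests. Libraries of a group were not duplicates: their counts differed by 3.55 to 21.9 times the sampling variance per degree of freedom.

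Genes were kept by filterByExpr, scaled by TMM and tested with edgeR 4.0.16 (quasi-likelihood, group as the only term) in R 4.3.3, with limma 3.58.1 and DESeq2 1.42.0 for alternatives. The threshold was a Benjamini-Hochberg adjusted p of 0.05 over 14932 genes. CPM means are arithmetic, and the fitted log2 differences use edgeR's default prior. Neighbours were placed through RefSeq positions (GRCh38.p14), by symbol for 13663 genes and by an older name for 944. Up to 20 tested genes were taken on each side, fewer where a chromosome ends. Sequences were read with Python 3.11.15 from GENCODE 29 and RefSeq, and motifs were searched in the 250 bases before a start, using for each gene the RefSeq start nearest to its GENCODE transcript. Coding ends of the alpha-tubulin genes are not reported here. The members and gene lists were chosen with earlier results of these data known. All isotypes and other tested tubulins are named, and of each further list up to 3 genes per direction with the smallest adjusted p. For TUBB3 and TUBB2A the 3 most correlated genes of at least 5 CPM are named. Marker genes named singly (SYT1, SYP, GAP43, SNAP25, ELAVL4 and those of the epithelium) were chosen after their values were seen. Alternatives were RLE, upper-quartile and no scaling, other filters, DESeq2, limma-voom, the replicate block, glmTreat against 1.5-fold, each library left out, subtraction of neighbours and other length scalings.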

Additional observations from a re-analysis of the deposited data

Results flagged for a closer look

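In 104 groups of 5 libraries (52 named genes in each population), 5 had 1 library far from the other 4 by Dixon's test, and chance alone gives about 1 in 20. TUBB4B was at 612 CPM in ROBO1neg replicate 5 and at 674 to 699 CPM in the other ROBO1neg libraries. TUBD1 was at 16.4 CPM in ROBO1neg replicate 3 and at 13.7 to 14.5 CPM in the others. CCT3 was at 342 CPM in ROBO1neg replicate 1 against 368 to 376 CPM, and CCT5 in the same library at 467 CPM against 513 to 531 CPM. MAP2 was at 45.6 CPM in ROBO1pos replicate 5 against 57.4 to 62.1 CPM in the other ROBO1pos libraries.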

How the results depend on the processing

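Of 190 refits of the 10 isotypes (19 settings each), 184 kept the direction and the side of the threshold, 5 lost the call and 1 (TUBB without ROBO1neg replicate 5) gained it. The 5 lost calls were TUBB2B, TUBB4B, TUBA1A, TUBA1B and TUBA4A, all in the test against 1.5-fold. That test left 1 isotype higher in ROBO1pos and 3 in ROBO1neg, and 2938 and 3298 of the 14932 genes in all. It also left 0 and 0 ring complex genes, 0 folding genes higher in ROBO1neg, 3 and 2 modification genes, 3 lattice-binding genes higher in ROBO1neg, 2 and 2 plus-end genes, and 2 destabilising genes higher in ROBO1pos. It asks for a larger difference by construction. A filter of 5 CPM left 1 other tubulin higher in ROBO1pos, since fewer genes were tested. Upper-quartile scaling left 2 folding and 5 modification genes higher in ROBO1neg, and the cause was not tested. Scaling moved the median log2 difference of all genes by less than 0.1 (0.00998 to 0.0822). Subtracting the median of the neighbours brought TUBA1B to 0.0184. This is smaller than the SE of its log2 difference (0.0469), an SE that does not include the spread of the neighbours. Without ROBO1pos replicate 3 TUBD1, which never passed, turned to -0.0329 (range with each library left out, -0.0329 to 0.0762). With each library left out, isotypes called ranged from 3 to 3 (ROBO1pos) and from 6 to 7 (ROBO1neg). With the replicate number as a block, 3 and 6 isotypes were called, and over all genes 6226 and 6086, against 6214 and 6036 without. Same-numbered libraries correlated at 0.062 to 0.169 in their deviations from group means, and each of 5 correlated best with its own number, a hint from the data and not from the design. Shares per length moved by more than their spread for 18 of 22 values with raw counts and for 22 of 22 with unique windows, the latter added after the data were seen.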

Other observations

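TUBAL3, an alpha-tubulin-like gene too low to be tested, was counted only in ROBO1pos: 48 reads in its 5 libraries (0.233 to 0.556 CPM per library) and 0 reads in the 5 ROBO1neg libraries. A count of 0 allows up to 0.0235 CPM over the ROBO1neg group (3 counts, counting error only). PFDN6, a prefoldin subunit, and ATAT1, the acetyltransferase of alpha-tubulin, are both listed at 0 in every library. Both lie on chromosome 6, ATAT1 within 1000 kb of TUBB, where 22.7% of other protein-coding genes passed the filter, and how reads of this region were aligned and counted was not tested. Also listed at 0 are the microtubule-associated MAP9 and the kinesin KIF2B.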
